A study of Mus musculus with 10 samples.

Results

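The genes of triglyceride formation and breakdown were followed in the jejunum, the middle part of the small intestine, of mice with and without the phospholipid gene Pcyt1a in the gut epithelium. They are 9 genes taken by name: the acyltransferases Mogat1, Mogat2, Dgat1 and Dgat2, the lipases Pnpla2, Lipe and Mgll, and the lipase regulators Abhd5 and G0s2. All 9 had a probe set that carries exactly 1 symbol, among 22180 genes tested. A gene with several such probe sets was read from its brightest one, by the mean of the 10 arrays.

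The study hybridised RNA from 5 knockout and 5 control samples to Affymetrix arrays, 1 array each. Knockout mice had the genotype Pcyt1aLoxP/LoxP;VilCreERT2 and control mice Pcyt1aLoxP/LoxP, so both carried the floxed gene. Cre, driven by the villin promoter of the gut epithelium, was present in the knockout group alone. Both groups were females aged 10 to 12 weeks and received tamoxifen over 5 days, which switches this Cre on. They ate a high-fat diet for 3 days, were fasted overnight, and were re-fed the same diet for 2 hours before a piece of 3 cm was taken. An effect of active Cre and the loss of Pcyt1a cannot be told apart in this design, and the piece holds all cells of the gut wall, also those in which villin is silent.

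An enterocyte that takes up dietary fat rebuilds triglyceride from monoacylglycerol and fatty acids. MOGAT enzymes make diacylglycerol and DGAT enzymes add the last acyl chain, after which the fat is packed into chylomicrons or held in cytosolic droplets. Droplet triglyceride is broken down stepwise by ATGL (Pnpla2), hormone-sensitive lipase (Lipe) and monoacylglycerol lipase (Mgll). The protein of Abhd5 activates ATGL and that of G0s2 inhibits it.

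Pcyt1a, the targeted gene, was lower in all 5 knockout arrays, at 7.24 to 7.66 log2 intensity against 8.95 to 9.51 in controls, as its label as the targeted gene implies. Where its probes lie relative to the deleted part is not given in the sources used here. Lactase (Lct), a marker of mature enterocytes of the jejunum, was bright in both groups, with means of 11.82 in knockout and 12.54 in control. Every knockout (11.36 to 12.20) nevertheless lay below every control (12.39 to 12.77) for Lct. Array medians of intensity over all probe sets were 45.8 to 48.1, and the correlation between any pair of arrays across the tested genes was 0.972 or higher. In 5 of the 9 genes (Mogat1, Mogat2, Dgat2, Abhd5 and G0s2) knockout 1 was the highest knockout array and control 5 the highest control array. The same held for 1783 of all 22180 genes (8.04%). This pair of arrays was picked out after the values were seen. The differences of Dgat2 and G0s2 are given with and without it, and correlations between genes with it only.

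Promoter sequences are shown for the ATGL regulators G0s2 and Abhd5, whose values moved together with those of Dgat2 across arrays, and for Pnpla2, the lipase gene they act on, whose values moved with them less. They are the 250 bases before the annotated start from RefSeq (build GRCm38.p6), where 6 of the 9 genes were found. Capitals mark matches, on either strand, to the motifs searched for.
G0s2 (chr1:193273189-193273438, minus strand): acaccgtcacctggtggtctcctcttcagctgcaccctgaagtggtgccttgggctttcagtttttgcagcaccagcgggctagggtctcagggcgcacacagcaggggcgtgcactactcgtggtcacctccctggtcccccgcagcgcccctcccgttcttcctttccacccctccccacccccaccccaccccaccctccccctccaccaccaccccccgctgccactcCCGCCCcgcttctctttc
Abhd5 (chr9:122351366-122351615, plus strand): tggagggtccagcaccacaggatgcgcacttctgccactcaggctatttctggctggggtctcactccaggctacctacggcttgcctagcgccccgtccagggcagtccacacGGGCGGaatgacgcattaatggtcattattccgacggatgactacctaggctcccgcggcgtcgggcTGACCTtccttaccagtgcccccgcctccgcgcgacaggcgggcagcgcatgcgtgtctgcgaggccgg
Pnpla2 (chr7:141454938-141455187, plus strand): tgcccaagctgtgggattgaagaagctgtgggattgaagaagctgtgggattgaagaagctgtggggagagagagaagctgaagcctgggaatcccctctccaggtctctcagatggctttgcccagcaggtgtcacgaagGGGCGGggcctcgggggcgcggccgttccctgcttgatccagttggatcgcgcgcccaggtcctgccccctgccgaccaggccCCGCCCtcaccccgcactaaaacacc

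The motifs were GGGCGG (in 32.7% of the 32851 promoter windows, each cut to the same 250 bases), AGGTCA, the half-site of many nuclear receptors (14.0%), TATAAA (12.4%), CCAAT (33.8%) and GTAAACA, a forkhead motif (3.17%). None of these motifs contains another. G0s2 held 1 GGGCGG match, Abhd5 1 GGGCGG and 1 AGGTCA match, and Pnpla2 2 GGGCGG matches. The other letters searched for do not occur in these 3 windows. Their GC content was 67.2% for G0s2, 64.8% for Abhd5 and 63.2% for Pnpla2, against a median of 52.4% over all windows. These matches describe the letters only, and binding was not measured.

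Of the 9 genes, 0 passed limma's test at an adjusted p under 0.05, where 0.343% of all genes did. At an unadjusted p under 0.05 there were 2, Dgat2 and Abhd5, both lower in knockout, against 12.1% of all genes. Values were lower in knockout for 7 of the 9 genes, as for 50.1% of all genes. The median difference of the 9 was -0.11 on the log2 scale, with -0.000354 over all genes. In 0 of the 9 did the arrays of the groups separate without overlap, which 2.77% of all genes did. In tissue RNA, fewer cells of a type and less RNA per cell cannot be told apart.

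**Figure D1:**
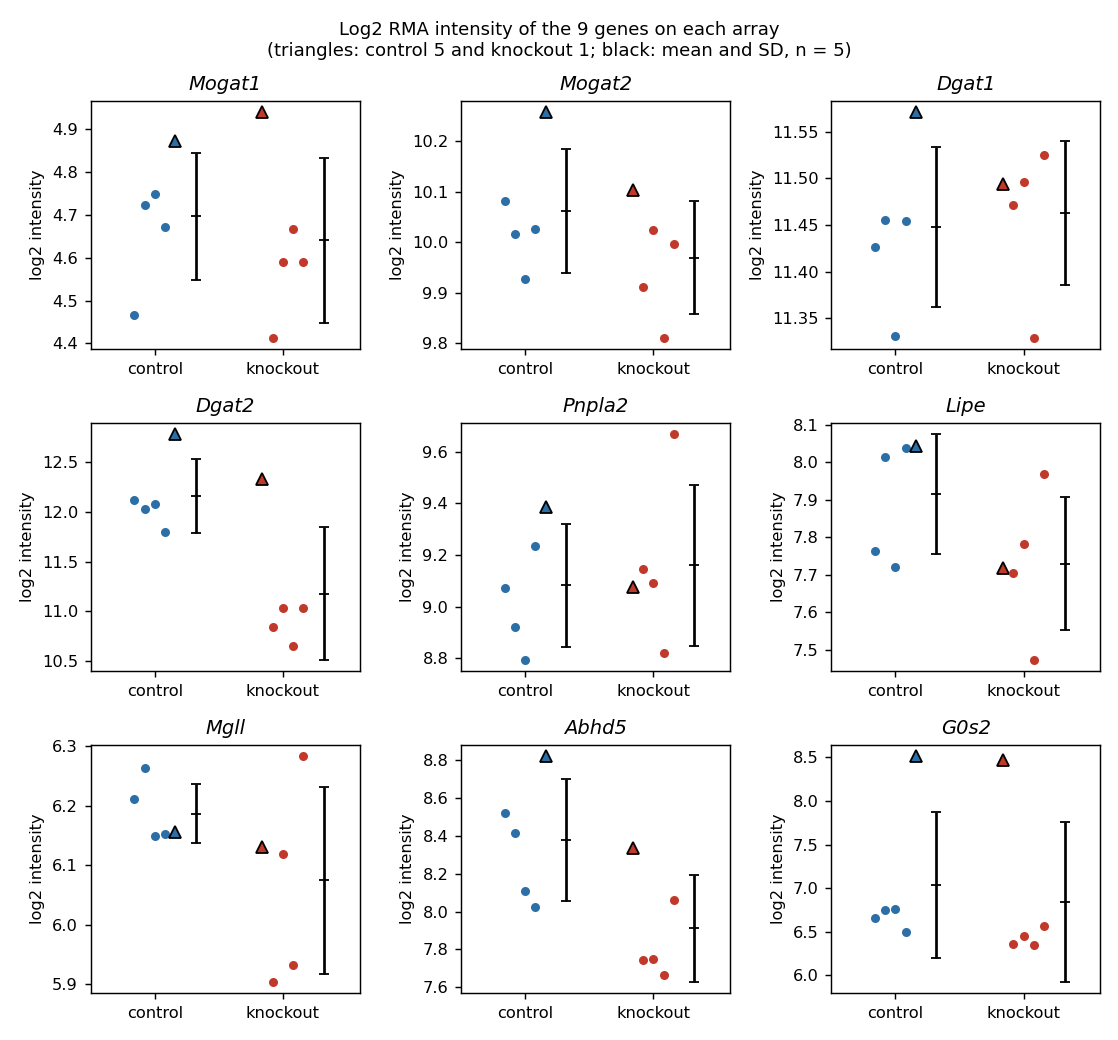
Log2 RMA intensity of each of the 9 genes on every array, controls in blue and knockouts in red, with triangles for control 5 and knockout 1 and black bars for mean and SD (n = 5). Dgat2 was between 10.66 and 11.03 in 4 knockouts and at 12.33 in knockout 1, while all controls were at 11.79 or above, and the scales differ between panels.

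Mogat2 and Mogat1 encode the enzymes that join a fatty acid to monoacylglycerol, and Mogat2 is the main form in the mouse intestine. Mogat2 was at 10.10, 9.91, 10.02, 9.81 and 10.00 log2 intensity in knockouts 1 to 5 and at 10.08, 10.02, 9.93, 10.03 and 10.26 in controls 1 to 5. The groups overlapped, with control 5 highest and knockout 4 lowest. Knockout signal was 93.8% of control, with a 95% confidence interval of 82.1% to 107% (log2 difference -0.09, SE 0.09, limma adjusted p = 0.745). Mogat1, the second gene of this kind, was dim, with 4.41 to 4.94 in knockouts and 4.47 to 4.87 in controls, all under the array medians of 5.52 to 5.59. At that signal a change in Mogat1 could be understated. Its ratio was 96.2% (81.6% to 113%).

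Dgat1 and Dgat2 encode enzymes unrelated in sequence that both convert diacylglycerol into triglyceride. Dgat1 belongs to the membrane-bound O-acyltransferases, and Dgat2 to the family that also holds the Mogat genes. Dgat1 had the smallest range of the 9 genes over the 10 arrays, at 11.49, 11.47, 11.50, 11.33 and 11.52 in knockouts 1 to 5 and at 11.43, 11.45, 11.33, 11.45 and 11.57 in controls 1 to 5. Both groups spanned nearly the same range. The ratio was 101% with an interval of 89.9% to 114% (log2 difference 0.02, SE 0.08, adjusted p = 0.965), so a change of 1.98-fold, as measured for Dgat2, lies outside it.

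Dgat2 had the lowest p of the 9 genes, and its difference rested on 4 of the 5 knockout arrays. Its log2 intensity was 12.33, 10.84, 11.03, 10.66 and 11.03 in knockouts 1 to 5 and 12.12, 12.03, 12.08, 11.79 and 12.78 in controls 1 to 5. Knockouts 2 to 5 lay below every control, while knockout 1 lay above 4 of the 5 controls. On the linear scale these 4 knockouts were at 1612.9 to 2095.7, knockout 1 at 5161.5 and controls at 3548.1 to 7039.9.

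The mean of Dgat2 was 11.18 ± 0.66 (SD, n = 5) over the knockouts and 12.16 ± 0.37 (SD, n = 5) over the controls. The difference of -0.98 (SE 0.28, 95% confidence interval -1.60 to -0.37) is 1.98-fold lower in knockout, or 50.6% of the control level. It had a limma adjusted p of 0.173 and an unadjusted, two-sided exact permutation p of 0.0397. The smallest permutation p that the arrays allow is 0.00794. Without knockout 1 the difference was -1.27 (SE 0.18, adjusted p = 0.00778), and without knockout 1 and control 5 it was -1.12 (SE 0.12, adjusted p = 0.00355). Both of these passed, but knockout 1 was singled out by its values, so they do not stand as separate evidence.

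**Figure D2:**
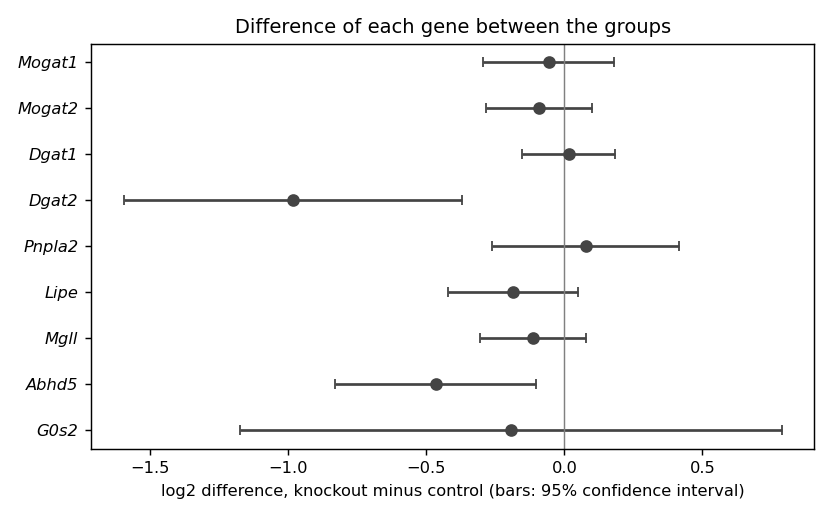
Log2 difference, knockout minus control, of each gene from limma, with bars for the 95% confidence interval (n = 5 and 5). The intervals of Dgat2 (-1.60 to -0.37) and Abhd5 (-0.83 to -0.10) do not reach 0, while the adjusted p of both is above the threshold, and the interval of G0s2 is the widest.

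Mogat2 and Dgat2 are neighbours on chromosome 7, with 0 annotated genes between them in RefSeq. Their differences were -0.09 and -0.98, and whether these differ from each other was not tested. In the deviations from the group means, both had control 5 and knockout 1 as their highest arrays and knockout 4 as the lowest of all arrays. The closest genes in these deviations over the 10 arrays were sought among 11089 genes with a mean above the median of all genes. For Dgat2 they were Gzf1 (r = 0.98), Cycs, which encodes cytochrome c (r = 0.96), and Lpgat1, a lysophospholipid acyltransferase (r = 0.96). For Mogat2 they were Kdm6b (0.99), a histone demethylase, Phactr4 (0.98) and Alpi (0.98), the intestinal alkaline phosphatase of the brush border. For Dgat1 they were Pcyt1a itself (0.99), Sidt2 (0.96) and Plekhg6 (0.95). These are the highest of many values over few arrays and are given as a description.

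Among the lipase genes, Pnpla2, which encodes ATGL and starts triglyceride breakdown, was not separated by genotype. It was at 9.07, 9.15, 9.09, 8.82 and 9.67 in knockouts 1 to 5 and at 9.07, 8.92, 8.79, 9.23 and 9.39 in controls 1 to 5. Knockout 5 was highest and control 3 lowest, and knockout 1 lay inside the control range. The ratio was 106% (83.5% to 133%, log2 difference 0.08, SE 0.16, adjusted p = 0.893). The genes nearest to Pnpla2 in their deviations were Tpcn1 (r = 0.97), a channel of lysosomes and endosomes, Metrnl (0.96) and Grina (0.96).

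Lipe, whose product hydrolyses diacylglycerol and also cholesteryl and retinyl esters, ranged from 7.47 to 7.97 in knockouts and from 7.72 to 8.04 in controls. Its ratio was 87.9% (74.7% to 103%, log2 difference -0.19, SE 0.11, adjusted p = 0.536). The ranges overlapped. Knockouts 1, 2 and 4 lay below every control, but knockouts 1 and 2, at 7.72 and 7.71, only just. Mgll, which completes the breakdown and also degrades the endocannabinoid 2-AG, lay between 5.90 and 6.28 in knockouts and between 6.15 and 6.26 in controls. Knockouts 1 to 4 lay below every control for Mgll, and knockout 5 was the highest array of all. The ratio was 92.5% (81.0% to 106%, log2 difference -0.11, SE 0.09, adjusted p = 0.678).

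Abhd5, the activator of ATGL, had the second lowest p of the 9 genes. It was at 8.33, 7.74, 7.75, 7.67 and 8.06 in knockouts 1 to 5 and at 8.52, 8.41, 8.11, 8.02 and 8.82 in controls 1 to 5. Knockouts 2, 3 and 4 lay below every control, knockout 5 above 1 control and knockout 1 above 2 of them. Means were 7.91 ± 0.28 (SD, n = 5) and 8.38 ± 0.32 (SD, n = 5), a difference of -0.47 (SE 0.17, interval -0.83 to -0.10). This is 1.38-fold lower, or 72.4% of control, with a limma adjusted p of 0.294 and an unadjusted exact permutation p of 0.0397. Without knockout 1 it was -0.57 (SE 0.16, adjusted p = 0.125), which does not pass either.

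G0s2, the inhibitor of ATGL and a known target of PPAR transcription factors, differed between single arrays by far more than between groups. It was at 8.47, 6.36, 6.45, 6.35 and 6.57 in knockouts 1 to 5 and at 6.66, 6.75, 6.76, 6.49 and 8.52 in controls 1 to 5. Knockout 1 and control 5 stood apart from all other arrays, at linear intensities of 354.4 and 366.8 against 81.6 to 108.1 in the other 8. The group difference was -0.19 (SE 0.45), or 87.4% of control with an interval of 44.2% to 172% (adjusted p = 0.912). Without this pair of arrays it was -0.23 (SE 0.10, adjusted p = 0.376). It was 0.18 without control 5 alone and -0.60 without knockout 1 alone. A second, dimmer probe set of G0s2 ranged from 5.36 to 5.89, with a difference of 0.03 (SE 0.11), and knockout 1 and control 5 were the highest arrays of their groups there too. Control 5 had the lowest list means of all arrays for Paneth cell markers (-1.86) and macrophage markers (-0.97), while knockout 1 was at -0.59 and 0.24. Their part in the G0s2 values was not tested.

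**Figure D3:**
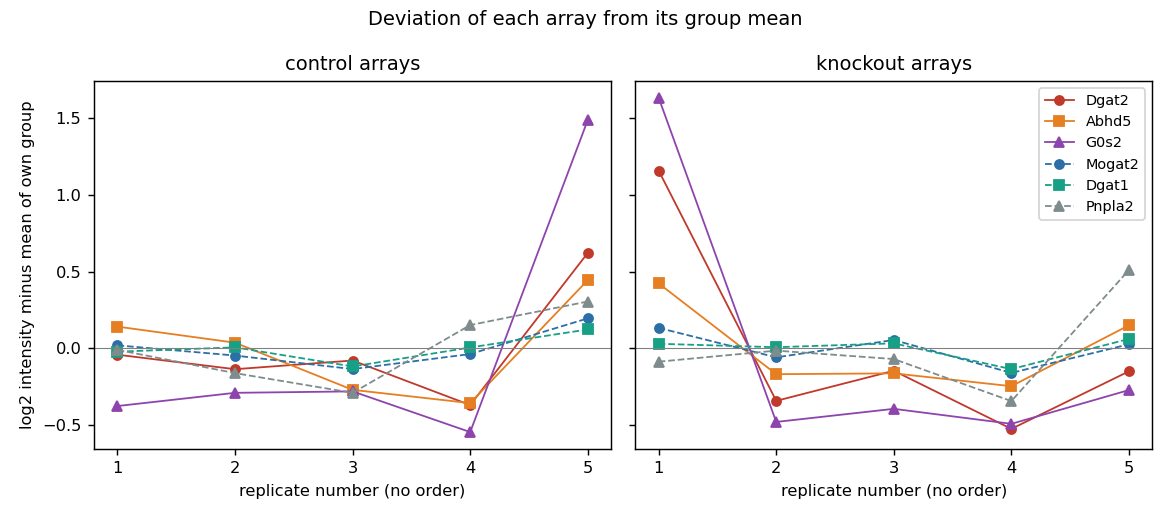
Log2 intensity minus the mean of the own group for 6 genes on each control array (left) and knockout array (right), with lines that join the points of a gene and mark no order. G0s2, Dgat2 and Abhd5 were highest on control 5 and on knockout 1, where G0s2 was at 8.52 and 8.47, whereas Pnpla2 was highest on control 5 and knockout 5.

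After subtraction of the group means, Dgat2 and G0s2 had a correlation of 0.95 over the 10 arrays. That between Abhd5 and G0s2 was 0.84 and that between Dgat2 and Abhd5 was also 0.84. Pnpla2 had lower values with the same genes, 0.16 with Dgat2, 0.22 with G0s2 and 0.43 with Abhd5, and 0.82 with Lipe. Of the 36 pairs among the 9 genes, 1 had a negative value (-0.05, Mogat1 with Pnpla2). Mogat2 had values of 0.78 with Dgat2, 0.79 with G0s2, 0.83 with Abhd5 and 0.88 with Dgat1. All these values describe 10 arrays and share the normalization of the arrays. G0s2, Dgat2 and Abhd5 each had their highest deviations on knockout 1 and control 5. On this pair of arrays these were 1.63 and 1.48 for G0s2, 1.16 and 0.62 for Dgat2 and 0.42 and 0.44 for Abhd5. The correlations were not computed without the pair, so how far they rest on it was not tested.

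For the mean of the ileum markers, as for Dgat2, knockout 1 lay apart from the other knockouts. In the list of ileum genes, the distal part of the small intestine, 9 of 11 measured genes had higher values in knockout and 0 passed, with Fgf15, an enterocyte hormone that limits bile acid synthesis, at 1.16 (SE 0.26, adjusted p = 0.0867). Cubn, which encodes the vitamin B12 receptor cubilin and was second by p, had the opposite sign (-0.84, SE 0.19, adjusted p = 0.0881). For Cubn all knockouts, at 11.11 to 12.12 and with knockout 1 at 11.12, lay below all controls (12.23 to 12.56). The list mean, centred over all arrays, was -0.77 in knockout 1 and 0.43 to 0.85 in knockouts 2 to 5, while controls ran from -0.52 to -0.04. Fabp6, the ileal bile acid binding protein, was named after its values were seen. Fabp6 was at 4.31 in knockout 1 and 8.59 to 11.20 in knockouts 2 to 5, while controls lay at 4.36 to 5.38.

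The arrays high in Fabp6 were the 4 arrays low in Dgat2, and knockout 1 sided with the controls in both. Summed intensity of the ileum list was 22069.8 to 29442.6 in knockouts and 22609.9 to 26844.1 in controls. This sum came mostly from Guca2b, Clec2h and Cubn, which were bright in both groups. Their means were 13.33, 12.81 and 11.61 in knockout and 13.46, 12.46 and 12.45 in control, so the sum says little about the dimmer genes of the list. Proximal genes had lower values in 8 of 12 cases, with a list mean of 0.25 in knockout 1 and -0.41 to -0.18 in knockouts 2 to 5, with controls at 0.01 to 0.46. With the ileum list mean as a covariate the Dgat2 difference was -0.30 (SE 0.22, adjusted p = 0.822), that of Abhd5 -0.25 (SE 0.20) and that of G0s2 0.80 (SE 0.41, adjusted p = 0.709). The covariate itself differs between the groups, and the part of position markers in the Dgat2 result was not tested beyond this fit.

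Markers of other cells were given by the same lists. Of 10 adipocyte markers 7 had lower values and 0 passed, with Cidec, a droplet protein that enterocytes also make, at -0.80 (SE 0.26). The adipocyte hormone genes Adipoq (3.46 to 4.31) and Lep (3.99 to 4.84) were under every array's median. Summed intensity of these markers was 1653.4 to 4389.6 in knockouts and 3759.6 to 6187.4 in controls. It came mostly from Cidec and Pck1, with means of 10.23 and 10.46 in knockout and 11.03 and 11.19 in control. Fabp4, the next brightest, was at 6.99 in knockout and 6.96 in control, with a difference of 0.03 (SE 0.21). The part of these markers in the Dgat2 and Abhd5 values was not tested.

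The remaining marker lists had 0 members past the test except 1, S100g, a calcium-binding protein, among the 12 proximal genes (-1.79, SE 0.33, adjusted p = 0.0469). That call held under 8 of 21 other processing choices, and leaving out any array but knockout 1 ended it. Mature enterocyte markers had lower values in 12 of 14 cases, with lactase, Lct, at -0.72 (SE 0.15, limma adjusted p = 0.064). Proliferation markers had higher values in 12 of 14, with Birc5 at 0.86 (SE 0.19), and Paneth cell markers in 5 of 8, with Pla2g2a at 0.89 (SE 0.44), Clps at -0.89 (SE 0.44) and a list median of 0.07. Smooth muscle markers were lower in 7 of 9, with Synm at -0.23 (SE 0.13), pancreatic acinar markers in 7 of 9, with Pnliprp1 at -0.63 (SE 0.13), and macrophage markers in 4 of 9, with Itgam at 0.33 (SE 0.14).

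The wider lipid pathway was covered by 6 lists, in which 1 gene was called. Among 22 other acylglycerol hydrolases and regulators, Ces1d, a carboxylesterase that hydrolyses triglyceride in mouse adipose tissue and liver, fell (-1.21, SE 0.17, adjusted p = 0.0185), and 21 did not pass. It was at 4.82, 4.31, 4.76, 4.21 and 4.35 in knockouts 1 to 5 and at 5.21, 5.50, 6.0, 5.83 and 6.0 in controls 1 to 5. Every knockout array, knockout 1 included, lay below every control. All knockouts and controls 1 and 2 were under their array medians, and with 16 added to the intensities the difference was -0.83 (SE 0.12). Among the fits with 1 array left out, the call ended without knockout 2 (adjusted p = 0.0606), knockout 4 (0.0604) or control 4 (0.0557). It also ended with the ileum covariate (-0.96, adjusted p = 0.254). Ces1d is one of a cluster of similar carboxylesterase genes, so its probe set may also pick up related transcripts.

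In that list Lipa, the acid lipase of lysosomes, was at -0.84 (SE 0.20, adjusted p = 0.0989) and Ces1e at -0.84 (SE 0.20). Lipa was at 11.48 in knockout 1 and 10.29 to 10.96 in knockouts 2 to 5, with controls at 11.38 to 11.88, so that knockout 1 lay in the control range here as well. For diacylglycerol supply by glycerol phosphate acylation and lipins, 0 of 16 passed and 11 had higher values. The smallest p there were those of Agpat3 (-0.51, SE 0.14), Plpp2 (0.33, SE 0.09) and Agpat4 (0.54, SE 0.16). The list median was 0.14, whereas that of the 9 genes was -0.11.

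**Figure D4:**
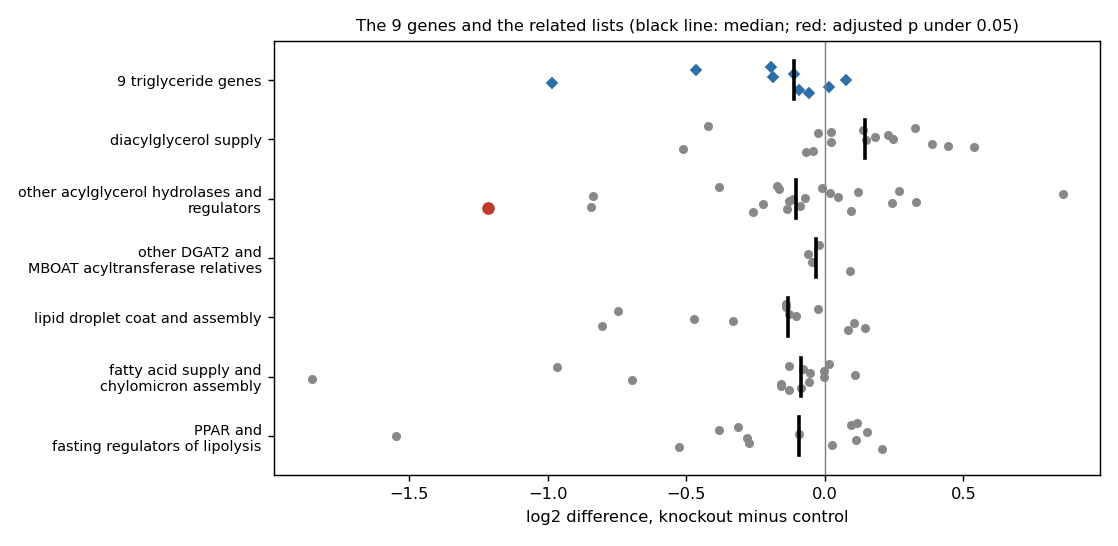
Log2 difference, knockout minus control, of the 9 genes (blue) and of every measured gene of the related lists (grey), with a black line at each median and red for an adjusted p under 0.05. Ces1d, at -1.21, is the red point, and the furthest to the left are Cd36 at -1.85 and Pdk4 at -1.55.

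Droplet and chylomicron genes had lower values more often than higher ones. In the droplet list this held for 9 of 12 (median -0.13, 0 passed). The smallest p there were those of Hsd17b11, a droplet-bound dehydrogenase, at -0.47 (SE 0.14), Plin2, a droplet coat protein, at -0.75 (SE 0.24) and Cidec at -0.80. Plin3, another coat protein gene, was brighter than Plin2, with means of 11.07 in knockout and 11.10 in control, and was at -0.02 (SE 0.12). In fatty acid supply and chylomicron assembly it held for 13 of 15 (median -0.09, 0 passed), with the fatty acid transporter Cd36 at -1.85 (SE 0.39, adjusted p = 0.0709), Apoc3 at -0.70 (SE 0.19) and Slc27a2 at -0.97 (SE 0.30). Apoa4 and Mttp of the same list had small spreads, with 13.53 to 13.90 and 12.84 to 13.15 over all arrays. Their differences were -0.16 (SE 0.08) and -0.05 (SE 0.08). Apoa4 lay near the top of the intensity scale, where a change could be understated.

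Among PPAR and fasting regulators 7 of 13 had lower values (median -0.09) and 0 passed. Pdk4, a kinase that restrains glucose oxidation and a PPAR target, was at -1.55 (SE 0.42), Foxo1 at -0.27 (SE 0.11) and Cpt1a, the gate of mitochondrial fatty acid entry, at -0.52 (SE 0.21). The last list, of DGAT2 and MBOAT relatives, had 4 of 6 genes measured, and 0 passed. Its smallest p were those of Dgat2l6 (-0.06), Awat1 (0.09) and Awat2 (-0.05).

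In Cd36 too, knockout 1 lay in the control range, at 9.84 in knockout 1 and 7.40 to 8.46 in knockouts 2 to 5, with controls at 9.71 to 10.53. Plin2 was at 10.12 in knockout 1 and 8.71 to 9.12 in knockouts 2 to 5, with controls at 9.50 to 10.30. Pdk4 was at 9.83 in knockout 1, at 7.15 to 8.58 in knockouts 2 to 5 and at 9.69 to 10.09 in controls. In each of these 3 genes, as in Dgat2, knockout 1 alone among the knockouts fell in the control range. Of the 9 genes and the listed pathway genes, limma without knockout 1 called Dgat2, Cd36, Plin2, Pdk4, Slc27a2, Lipa, Agpat3 and Ces1d lower. Their adjusted p ran from 0.00217 for Cd36 to 0.0483 for Agpat3, while 268 of all genes were called in that fit against 76 with all arrays. With all arrays Ces1d alone of these named genes passed, and limma gave Cd36 an adjusted p of 0.0709 and Plin2 0.233. Knockout 1 was singled out by its values, so the calls without it do not stand as separate evidence.

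**Figure D5:**
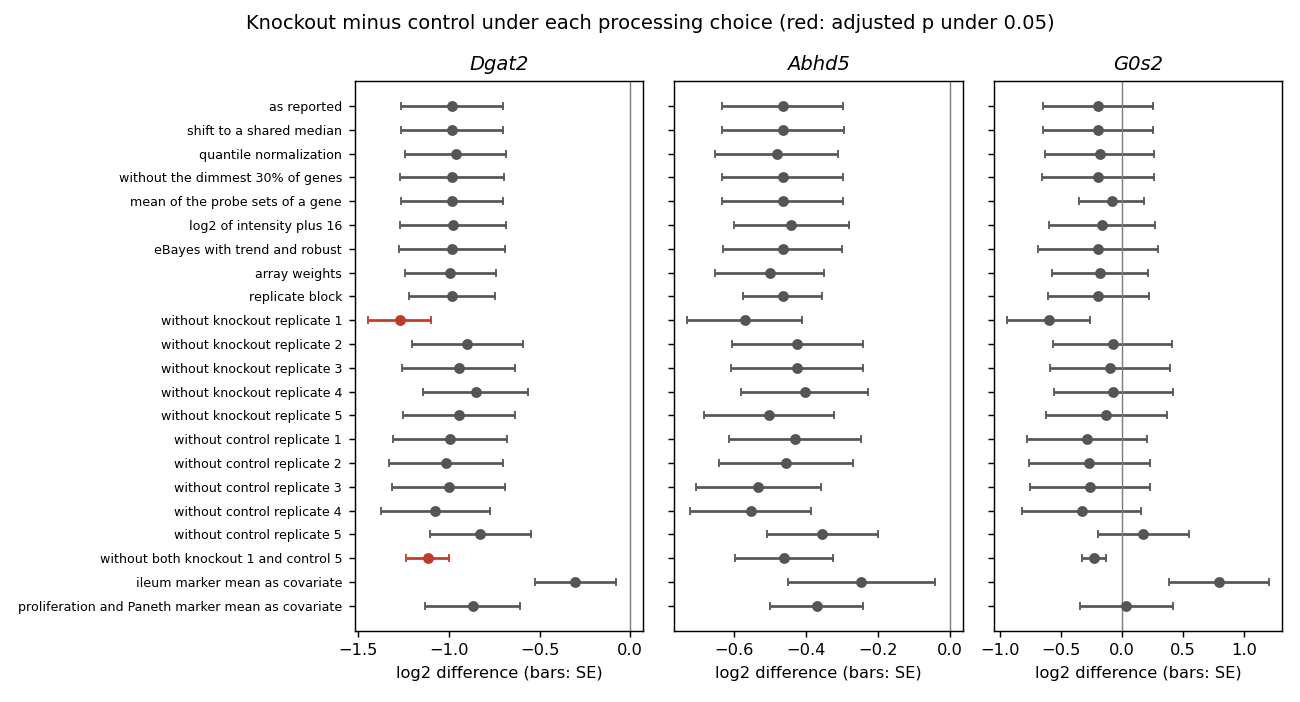
Log2 difference of Dgat2, Abhd5 and G0s2 under each processing choice, with bars for the SE and red for an adjusted p under 0.05. Dgat2 ran from -1.27 to -0.30 and passed in 2 choices, both without knockout 1, Abhd5 ran from -0.57 to -0.25, and G0s2 from -0.60 to 0.80.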

How the data were processed

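Per the submitters' processing notes, the authors used RMA and Affymetrix Expression Console 1.4.1.46, with further settings not given in the sources used here. What they deposited are linear intensities with 1 decimal, from 1.8 to 15278.7. RMA makes arrays alike in distribution, so a change common to most genes would be hidden. Detection calls were not used, and precision is limited by the number of arrays.

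Here log2 was taken. The platform annotation in GEO gave 1 symbol to 23521 of 41345 probe sets, several to 1814 and none to 16010. Only the first were used, the brightest per gene, which gave 22180 genes, of which 21994 matched RefSeq by Entrez identifier with 0 differing symbols. Knockout was compared with control in limma 3.58.1 (R 4.3.3) with group as the only term, and Benjamini-Hochberg adjustment ran over all genes. Exact permutation tests used all 252 assignments of arrays and are two-sided. All 10 columns were mapped from the titles, whose words do not state that each array is a separate animal, so the p-values reflect only how these samples vary, which may in part be technical. The titles do not state whether replicate numbers pair the samples. Deviations of same-numbered arrays had r over 0.1 in 1 of 5 pairs. That shows no strong shared shift but cannot settle whether the numbers mark pairs.

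The 9 genes, the 6 pathway lists and the 9 marker lists (adipocyte, pancreatic acinar, smooth muscle, mature enterocyte, proximal small intestine, ileum, proliferation, Paneth cell, macrophage) were chosen with earlier results of these data known. Named were all 9 genes, Pcyt1a, per pathway list the called genes or the 3 with the smallest p, per marker list the smallest p and any called gene, and for Dgat2, Mogat2, Dgat1 and Pnpla2 the 3 genes most like them. The further values of Fabp6, Cubn, Guca2b, Clec2h, Clps, Adipoq, Lep, Pck1, Fabp4, Plin3, Apoa4 and Mttp were chosen after they were seen. Python 3.11.15 searched the promoters.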

Additional observations from a re-analysis of the deposited data

Results flagged for a closer look

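Within groups of 5 arrays, the highest or lowest array was compared with its nearest neighbour by Dixon's criterion. Of 18 groups (9 genes, each in knockout and control), 4 held an array far from the others, where chance gives about 5% of groups. G0s2 in knockout 1 was at 8.47, with the next knockout at 6.57. G0s2 in control 5 was at 8.52, with the next control at 6.76. Dgat2 in knockout 1 was at 12.33, with the next knockout at 11.03. Dgat1 in knockout 4 was at 11.33, with the next knockout at 11.47, a gap of small size. The 9 genes share the arrays, so these are not independent of each other.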

How the results depend on the processing

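Under 21 alternatives for each gene (20 for Mogat1, which drops out with the dimmest 30% of genes, and 22 for G0s2), Mogat2, Lipe, Mgll, Abhd5, Dgat2 and Pcyt1a kept their direction. Pcyt1a passed in all. Dgat2 passed without both knockout 1 and control 5 (-1.12) and in 1 of the 10 fits that leave out 1 array, which ran from -1.27 to -0.83. In these 2 fits 1 of the 9 genes was called, so the count was 0 to 1 with 1 array left out. Dgat1 ran from -0.0139 to 0.0489, Pnpla2 from -0.0494 to 0.164, Mogat1 from -0.13 to 0.000566 and G0s2 from -0.60 to 0.18 with 1 array left out, so that their direction turned. With the ileum covariate Mogat1 (0.13), Pnpla2 (-0.0109) and G0s2 (0.80) turned, and G0s2 also turned with the proliferation and Paneth covariate (0.0341) and with its other probe set (0.0271). All of these were small or wide in error, and the cause was not tested. The count of all called genes was 76. It was 142 with array weights, 186 without both knockout 1 and control 5, 3 with the ileum covariate, 198 with the proliferation and Paneth covariate, 261 at a threshold of 0.1 and 11 to 268 with 1 array left out. With the replicate block it was 27, 0 of 10 arrays correlated best with their own number, and Ces1d did not pass (adjusted p = 0.0521). Median shift, quantile normalization, the mean of probe sets, an added intensity of 16 and eBayes with trend and robust fitting left the calls of the 9 genes as they were.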
